A study of Mus musculus with 12 samples.

Results

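Immature bone marrow-derived basophils (BMBAs) elicited by thymic stromal lymphopoietin (TSLP) were compared, over all genes, with immature BMBAs elicited by interleukin-3 (IL-3). The comparison rests on 6 of the 12 libraries in the count table, 3 labelled TSLP-elicited immature and 3 labelled IL-3-elicited immature, and these were chosen by label alone. All cells came from the marrow of wild-type C57BL/6J mice kept for 7 days with either IL-3 at 0.3 ng/mL or TSLP at 1 µg/mL, and no group carried an altered allele. The unit of the TSLP dose is not the same in every label, and the value printed is that of the treatment protocol. Each culture received 1 cytokine at 1 dose, so a difference in dose and a difference in cytokine cannot be told apart. Immature cells were sorted as FcεRIαhi CD49blo, the population that the study calls pre-basophils, and mature cells as FcεRIαlo CD49bhi. The other 6 libraries, 3 TSLP mature and 3 IL-3 mature, share no library with this comparison and are used to ask whether a difference between the cytokines was particular to the immature stage. Whether immature and mature cells were sorted from the same cultures is not stated in the sources used here, so the stages may not be independent. The age of the mice is not given in the labels. The study describes the 3 libraries of each group as 3 cultures, so p-values measure the spread between cultures, and whether the cultures came from separate mice is not stated in the sources used here.

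IL-3 acts through a receptor made of the IL-3 receptor alpha chain (Il3ra) and a beta chain (Csf2rb or Csf2rb2), and TSLP through a receptor made of the TSLP receptor chain (Crlf2) and the IL-7 receptor alpha chain (Il7r). Both receptors activate Janus kinases and the transcription factor STAT5, which switches on its own feedback inhibitors, among them Cish and the Socs genes, as well as survival and growth genes. Basophils are granulocytes that carry the high-affinity IgE receptor, store histamine and serine proteases in their granules, and release cytokines and chemokines in allergy and in infection with parasitic worms. Basophil precursors divide, and division ends as the cells mature.

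Library totals were 2659907 to 3447881 counts in TSLP immature and 1720065 to 3228981 counts in IL-3 immature cells, and replicates differed by more than counting noise in all 6 pairs (chi-square per degree of freedom 2.18 to 14.7). The 6 ribosomal RNA entries of the table held 36.9% ± 2.91 of the counts in TSLP immature and 20.9% ± 5.42 in IL-3 immature libraries (mean ± SD, n = 3), with no overlap between the groups (exact two-sided permutation test p = 0.1 for the Rn45s entry, the smallest p that 3 against 3 can give). These entries share reads, so their sums and the library totals may count a read repeatedly. Rn45s alone held 18.5% ± 1.45 and 10.5% ± 2.70. TSLP immature 3 stood apart from TSLP immature 1 and 2 in the transcripts of ribosomal proteins and respiratory chain subunits, which are described further on. All 11 basophil markers on a fixed list had counts in both groups, with summed levels of 29076 to 32079 scaled counts (CPM) in TSLP and 41502 to 44948 in IL-3 libraries. The proteases Mcpt8 and Prss34, whose values are given further on, held most of these sums. At an adjusted p under 0.05, 2 of the 11 were higher and 3 lower with TSLP. Of the log2 fold changes 5 were positive and 6 negative (median -0.19). Mast cell markers summed to 1.36 to 3.01 CPM in TSLP and 6.28 to 14.1 CPM in IL-3 libraries. CPM here are counts scaled to the same library size after TMM normalisation, and they are compared between libraries only, since they are not corrected for transcript length.

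Of 10861 genes tested, 1443 (13.3%) differed between TSLP and IL-3 immature cells at an adjusted p under 0.05. Of these, 802 (7.38% of the tested genes) were higher and 641 (5.9%) lower with TSLP, with a change of 2-fold or more in 439 and 382 of them. The 3 TSLP libraries all lay above or all lay below the 3 IL-3 libraries in 1438 of the 1443 genes, against 38% of all tested genes. The median log2 fold change over all tested genes was 0.04, and every list below is described by its counts, its median and these background shares. In bulk samples, fewer cells of a type and less RNA per cell cannot be told apart. With 1 library left out the call count fell to 588 (TSLP immature 3), 710 (IL-3 immature 1), 738 (IL-3 immature 2), 939 (TSLP immature 1) or 955 (TSLP immature 2), and it rose to 2243 without TSLP mature 1, a library outside this comparison that shares its filter, scaling and spread estimate. No gene called in both fits changed direction.

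**Figure D1:**
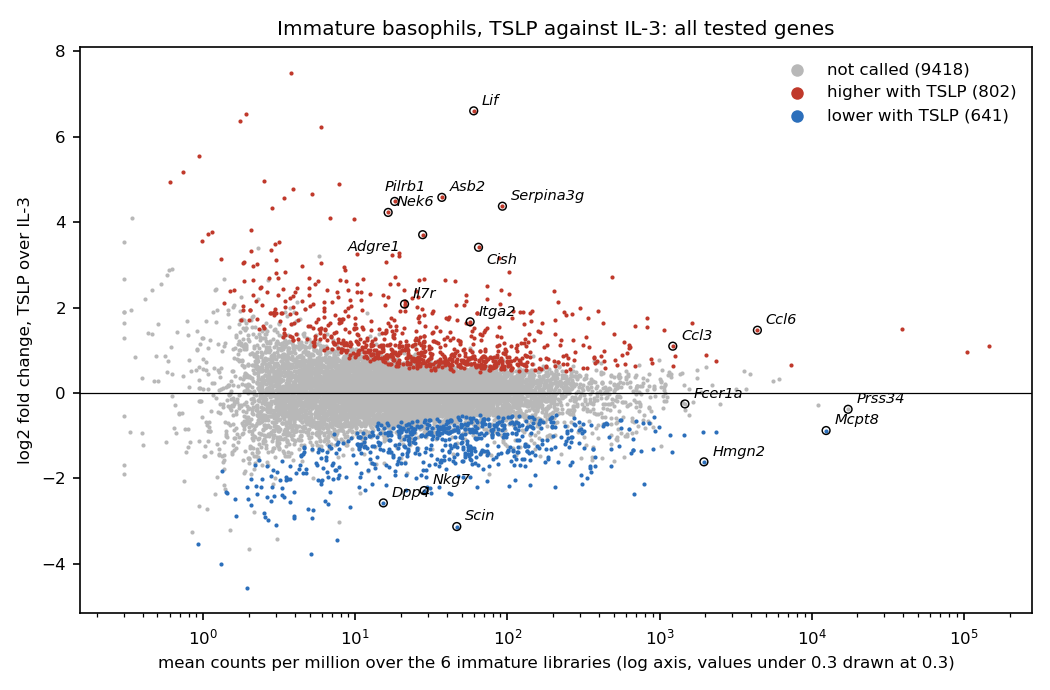
Each point is 1 of the 10861 tested genes, placed by its mean CPM over the 6 immature libraries (log axis) and its log2 fold change of TSLP over IL-3. The 802 genes called higher are red, the 641 called lower are blue, and the circled genes are named in the text, with Lif highest among them at 6.61 and Scin lowest at -3.13.

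The largest rise among genes with at least 10 CPM was that of Lif, a cytokine of the IL-6 family (chromosome 11, 4257557 to 4272514, plus strand, GRCm38). It stood at 114, 112 and 129.7 CPM in the 3 TSLP libraries and at 1.94, 0.571 and 1.32 CPM in the 3 IL-3 libraries, a log2 fold change of 6.61 ± 0.32 (SE, adjusted p = 5.17e-09). Lif was thus close to absent from IL-3 immature cells and plainly measured in every TSLP library. Asb2, a substrate receptor of a ubiquitin ligase (chromosome 12, 103321142 to 103356001, minus strand), stood at 70.4, 62.5 and 80.3 against 3.4, 2.29 and 3.31 CPM (log2 4.58 ± 0.23, adjusted p = 5.17e-09). Serpina3g, an intracellular inhibitor of cathepsins (chromosome 12, 104236245 to 104241939, plus strand), stood at 176, 175 and 179 against 11.6, 9.999 and 4.3 CPM (log2 4.37 ± 0.27, adjusted p = 4.61e-08), although 15.5% of the 50-base stretches of its transcripts also occur in Serpina3h and other members of its family. In all 3 genes the groups lay far apart. The mitotic kinase gene Nek6 rose by 4.23 on the log2 scale, and Adgre1, which encodes the adhesion receptor F4/80, went from 5.34, 3.14 and 3.64 to 46, 49.2 and 58.9 CPM (log2 3.71 ± 0.25). Among the 12 largest rises were also Gcnt2 (a glycosyltransferase, 3.28), Upp1 (uridine phosphorylase, 3.25), Metrnl (a secreted protein, 3.23), Cd24a (a surface glycoprotein, 3.20) and Pdzd4 (3.17).

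The largest fall was that of Scin, an actin-severing protein also called adseverin (chromosome 12, 40059769 to 40134228, minus strand). It stood at 8.72, 7.81 and 11.9 CPM with TSLP and at 81, 81.7 and 87.4 CPM with IL-3, a log2 fold change of -3.13 ± 0.24 (adjusted p = 4.9e-07), and both groups were tight. Dpp4, a surface dipeptidase (chromosome 2, 62330073 to 62412231, minus strand), stood at 5.11, 3.52 and 4.09 against 41.2, 18.9 and 18.9 CPM (log2 -2.57 ± 0.33, adjusted p = 0.000138), and IL-3 immature 1 was the highest of the 6 libraries. Nkg7, a protein of cytotoxic granule membranes, fell from 46.1, 49.4 and 45.4 to 6.92, 10.5 and 11.6 CPM (log2 -2.29 ± 0.26). Hmgn3, a nucleosome-binding protein, fell from 60.6, 80.8 and 71.5 to 15.9, 13.7 and 11.9 CPM (log2 -2.36 ± 0.28), and Hmgn2, of the same family, fell by 1.61 on the log2 scale. The histone entries Hist1h2ap and Hist1h2ag fell by 2.34 each. They share 93.1% and 78.9% of their 50-base stretches with other histone genes, so they may be the same reads, and TSLP immature 3 was the lowest library for both.

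STAT5 has a known palindromic motif, TTCNNNGAA, which reads the same on both strands. It was searched in the RefSeq promoters (GRCm38.p6), taken from 250 bases before to 50 bases after the start site. Promoters of 8.39% of the tested genes with an entry held the motif, against 11.6% of the genes at least 2-fold higher with TSLP (37 of 320 with an entry, 439 in all) and 7.26% of those at least 2-fold lower (18 of 248 with an entry, 382 in all). Of 16 promoters found for the 21 genes on the STAT5 list given further on, 3 held it (Bcl6, Cish and Socs3). The AP-1 motif TGANTCA, also the same on both strands, was in 5.86% of the tested, 10.9% of the higher (35 of 320) and 8.06% of the lower promoters (20 of 248), and in 0 of 18 promoters found for the list of ERK feedback and immediate early genes. The 2 motifs were thus both more frequent in the higher genes than in all tested genes, and the AP-1 motif was also more frequent in the lower genes. Over all genes with a promoter entry, tested or not, 9.55% held the STAT5 and 8.97% the AP-1 motif. These shares are given without a test. A match describes the letters and not a bound site. These are 4 genes that rose with TSLP and hold the STAT5 motif, which stands in capitals. Each is shown 5′ to 3′ on its own strand from 250 bases before to 30 bases after the start site.
Cish (chr9:107296409-107296688, plus strand): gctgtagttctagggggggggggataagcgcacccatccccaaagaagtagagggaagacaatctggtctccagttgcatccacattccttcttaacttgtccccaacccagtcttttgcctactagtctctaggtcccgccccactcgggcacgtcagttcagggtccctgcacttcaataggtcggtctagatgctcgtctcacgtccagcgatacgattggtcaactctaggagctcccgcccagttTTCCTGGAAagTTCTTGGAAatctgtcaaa
Socs3 (chr11:117969337-117969616, minus strand): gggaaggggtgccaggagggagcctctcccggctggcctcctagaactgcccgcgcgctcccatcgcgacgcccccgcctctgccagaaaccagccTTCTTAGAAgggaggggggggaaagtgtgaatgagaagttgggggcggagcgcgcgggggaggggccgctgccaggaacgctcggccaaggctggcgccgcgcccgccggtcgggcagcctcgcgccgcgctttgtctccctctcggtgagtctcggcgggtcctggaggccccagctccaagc
Il7r (chr15:9529847-9530126, minus strand): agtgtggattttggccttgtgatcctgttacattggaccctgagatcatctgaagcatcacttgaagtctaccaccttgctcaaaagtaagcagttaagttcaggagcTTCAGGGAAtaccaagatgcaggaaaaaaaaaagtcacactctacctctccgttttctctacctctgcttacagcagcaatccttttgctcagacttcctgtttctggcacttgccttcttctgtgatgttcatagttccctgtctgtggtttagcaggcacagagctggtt
Serpina3g (chr12:104235897-104236176, plus strand): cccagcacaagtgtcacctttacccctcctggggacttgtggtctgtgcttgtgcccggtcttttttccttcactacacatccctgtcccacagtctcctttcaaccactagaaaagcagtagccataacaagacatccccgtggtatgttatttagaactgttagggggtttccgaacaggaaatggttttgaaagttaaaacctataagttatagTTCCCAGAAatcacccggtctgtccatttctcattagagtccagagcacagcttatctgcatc
Cish held 2 matches, centred 4 and 15 bases after the start site, Serpina3g held 1 centred 29 bases before it, and Socs3 and Il7r held 1 each, centred 150 and 138 bases before it. The promoters of Lif and Scin, the genes with the largest rise and fall, held 0 matches to the STAT5 motif in this window.

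Of 20 tested STAT5 feedback and target genes, 12 were called higher and 0 lower, the 20 log2 fold changes were all positive, and their median was 1.01. The count was 9 to 11 when any 1 immature library was left out. Cish, a STAT5 feedback inhibitor, stood at 104, 104 and 147 CPM with TSLP and at 6.79, 11.1 and 14.6 CPM with IL-3 (log2 3.41 ± 0.24, adjusted p = 1.77e-07). Socs3, which blocks Janus kinases, stood at 26.2, 36.3 and 36.1 against 5.34, 5.71 and 5.63 CPM (log2 2.54 ± 0.21, adjusted p = 1.16e-06). Pim2, a survival kinase, stood at 40.3, 50.4 and 56.5 against 6.79, 8.28 and 7.62 CPM (log2 2.67 ± 0.20, adjusted p = 3.95e-07). In each of the 3 genes the lowest TSLP library was above the highest IL-3 library by more than the spread within either group. Socs2, another member of the family, was not called, with overlapping values of 6.01, 3.52 and 2.72 and 1.46, 2.86 and 4.63 CPM (log2 0.41 ± 0.41, adjusted p = 0.555). The survival gene Mcl1 (0.43 ± 0.17, adjusted p = 0.112) and the cyclin gene Ccnd3 (0.23 ± 0.19, adjusted p = 0.469) were not called. Bcl2l1, which encodes the survival protein BCL-XL, was at log2 0.82 ± 0.20 (adjusted p = 0.0143) and lost its call with no filter on low counts and without TSLP immature 1 or 2 or IL-3 immature 1 or 2, its log2 value staying between 0.68 and 0.90 over all alternatives.

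The interaction asked whether the cytokine difference of immature cells differed from that of mature cells, and it was called for 455 genes (4.19% of those tested, 2.15% with a positive and 2.04% with a negative difference), 9 of the 20 STAT5 genes among them. In mature cells Cish stood at 235 ± 2.74 CPM with TSLP and 91.5 ± 9.6 CPM with IL-3 (mean ± SD, n = 3), a smaller difference (log2 1.36) than in immature cells (interaction 2.05 ± 0.31, adjusted p = 0.00166). Pim2 gave log2 1.46 in mature cells and an interaction of 1.21 ± 0.26 (adjusted p = 0.0146). Socs3 went the other way in mature cells, where it stood at 157 ± 8.94 CPM with TSLP and 262 ± 16.9 CPM with IL-3 (log2 -0.74, adjusted p = 0.00428, interaction 3.29 ± 0.27, adjusted p = 4.49e-06).

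**Figure D2:**
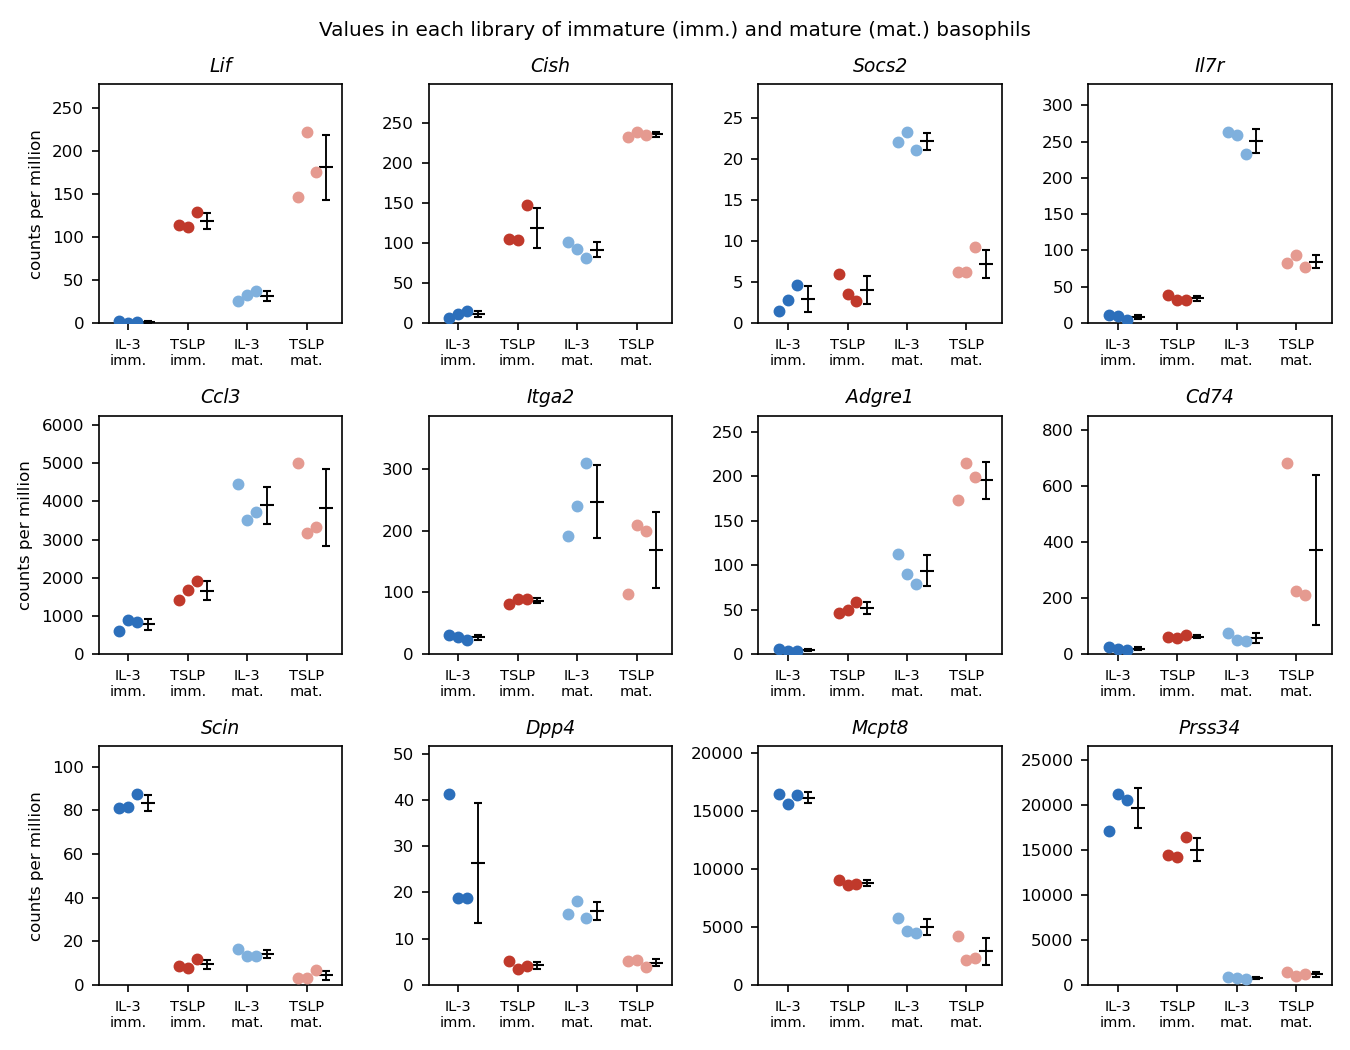
Each panel gives 1 gene, with a point for each library in CPM on a linear axis from 0 and a bar for the mean ± SD of its group of 3. Lif, Cish, Il7r, Ccl3, Itga2, Adgre1 and Cd74 sit higher in the 3 TSLP than in the 3 IL-3 immature libraries, Scin, Dpp4 and Mcpt8 sit lower, Prss34 lies lower without being called, and Socs2 overlaps.

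Of 22 tested immediate early genes and feedback genes of the ERK pathway 12 were called higher and 0 lower. Their median was 0.70 and 6 of the 22 log2 fold changes were negative, and 10 stayed called without any 1 immature library. Junb, a subunit of the AP-1 transcription factor, stood at 327, 374 and 549 against 85.9, 119.7 and 138 CPM (log2 1.86 ± 0.24, adjusted p = 0.000135). Fosb, another AP-1 subunit, stood at 50.2, 93.8 and 119.5 against 11.6, 19.1 and 27.1 CPM (log2 2.16 ± 0.37, adjusted p = 0.00157). Dusp5, a phosphatase that turns ERK off, stood at 36.1, 47.7 and 66.7 against 7.28, 13.7 and 19.2 CPM (log2 1.86 ± 0.33, adjusted p = 0.00188). TSLP immature 3 was the highest library for all 3, and none of the groups overlapped. Egr3 rose by 2.19 on the log2 scale, while Egr1 (0.53 ± 0.23, adjusted p = 0.142) and Ier3 (-0.20 ± 0.21, adjusted p = 0.588) were not called.

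NF-kB subunits and feedback genes gave 5 higher and 0 lower of 15 tested (median 0.59), and this count was 1 without TSLP immature 3, 2 without IL-3 immature 2 and 3 without IL-3 immature 1. Nfkbie, an inhibitor of NF-kB, was the member called under every alternative, at 48.7, 68.4 and 65.7 against 24.3, 22.3 and 21.9 CPM (log2 1.42 ± 0.18, adjusted p = 0.000108). The best known inhibitor gene, Nfkbia, was not called (log2 -0.23 ± 0.17, adjusted p = 0.397).

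Of 18 tested cytokine and growth factor genes 7 were higher and 1 lower (median 0.70), and of 6 tested chemokine genes 4 were higher and 0 lower (median 1.55). Il6, a cytokine of acute inflammation, stood at 309, 282 and 459.6 CPM in the TSLP and at 85.9, 81.4 and 73.5 CPM in the IL-3 libraries (log2 2.13 ± 0.23, adjusted p = 2.22e-05). Vegfa, a vascular growth factor, stood at 5.11, 12.1 and 10.6 against 2.43, 1.14 and 1.32 CPM (log2 2.54 ± 0.43, adjusted p = 0.00126). Tnf, an inflammatory cytokine, stood at 13.2, 14.8 and 12.6 against 2.91, 5.14 and 2.32 CPM (log2 1.91 ± 0.30, adjusted p = 0.000697). None of these genes overlapped between the groups. Il4 and Il13, type 2 cytokine genes with which basophils are usually associated, were not called. Il4 stood at 38.2, 39.5 and 19.7 with TSLP and 19.4, 18.9 and 18.5 CPM with IL-3 (log2 0.78 ± 0.29, adjusted p = 0.0882), where TSLP immature 3 lay close to the IL-3 libraries, and Il13 at 3.31, 3.13 and 2.04 and 1.46, 2.29 and 3.31 CPM (log2 0.22 ± 0.42, adjusted p = 0.787), with overlap. Angpt1, a ligand of the Tie2 receptor made by progenitors, was the one cytokine gene that fell, from 269.7, 170.3 and 116 to 63.7, 62.1 and 64.7 CPM (log2 -1.54 ± 0.25, adjusted p = 0.000928).

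The 4 chemokines that rose attract monocytes, eosinophils and other leukocytes. Ccl6 stood at 5882, 6015 and 7488 CPM with TSLP and 2183, 2533 and 2286 CPM with IL-3 (log2 1.47 ± 0.22, adjusted p = 0.000587), Ccl9 at 2174, 2044 and 3160.2 against 812, 805 and 754 CPM (log2 1.64 ± 0.23, adjusted p = 0.000351). Ccl4 stood at 309.7, 394 and 427 against 84.4, 119 and 113 CPM (log2 1.84 ± 0.19, adjusted p = 1.86e-05), and Ccl3 rose by 1.10 on the log2 scale (adjusted p = 0.00489). All 4 stayed called whichever immature library was left out. In mature cells the cytokines gave close levels of Ccl6, 14379.7 ± 4168 and 15555 ± 1957 CPM (log2 -0.11, adjusted p = 0.742), and the interaction was 1.58 ± 0.31 (adjusted p = 0.00871). The same held for Ccl9 (log2 0.13 in mature cells, interaction 1.503 ± 0.32, adjusted p = 0.0143) and Ccl4 (log2 0.26, interaction 1.58 ± 0.26, adjusted p = 0.003), and for Ccl3 the interaction was 1.12 ± 0.31 (adjusted p = 0.0555).

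Of the receptor chains for the 2 cytokines, Il7r, Csf2rb and Csf2rb2 rose with TSLP, Il3ra fell and Crlf2 was not called. Il7r, the shared chain of the TSLP and IL-7 receptors, stood at 38.2, 32 and 31.7 CPM with TSLP and 10.7, 9.14 and 4.63 CPM with IL-3 (log2 2.08 ± 0.24, adjusted p = 5.25e-05). Crlf2, the chain specific to TSLP, was not called, at 80.9, 89.5 and 100.1 against 62.6, 80.3 and 76.1 CPM (log2 0.30 ± 0.20, adjusted p = 0.353). Il3ra, the chain specific to IL-3, fell from 279.9, 140.3 and 248 to 94.7, 87.9 and 61.3 CPM (log2 -1.45 ± 0.24, adjusted p = 0.00127). The groups did not overlap for Il7r or Il3ra. Csf2rb, the beta chain shared by IL-3, IL-5 and GM-CSF, rose by 0.74 (adjusted p = 0.02) and lost its call without TSLP immature 3 or IL-3 immature 2 or 3, with log2 values of 0.60 to 0.77. Csf2rb2, the beta chain that serves IL-3 alone, rose by 0.90 (adjusted p = 0.00589). These beta chains share 12.3% and 18.9% of their 50-base stretches with each other and other entries, so part of their reads could belong to either. In mature cells Il7r was lower with TSLP, at 84.5 ± 8.94 against 251 ± 16.6 CPM (log2 -1.57, interaction 3.65 ± 0.31, adjusted p = 8.35e-06), whereas Il3ra was lower with TSLP at both stages (log2 -1.42 in mature cells, interaction -0.03 ± 0.34, adjusted p = 0.981).

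Over the whole cytokine receptor list 8 of 31 tested members were higher and 1, Il3ra, lower (median 0.39). The count of higher genes was 5 without TSLP immature 3 or IL-3 immature 2. Il4ra, the signalling chain for IL-4 and IL-13, stood at 10.5, 14.8 and 19.7 against 3.4, 3.43 and 1.66 CPM (log2 2.402 ± 0.32, adjusted p = 0.000154). Il10ra, the ligand-binding chain for IL-10, stood at 39.4, 41.4 and 42.6 against 5.82, 9.14 and 14.9 CPM (log2 2.01 ± 0.25, adjusted p = 0.000109). Both were separated in every library. The IL-33 receptor gene Il1rl1 (-0.25 ± 0.21, adjusted p = 0.455) and the IL-18 receptor gene Il18rap (0.22 ± 0.19, adjusted p = 0.466) were not called. Of 12 tested TNF receptor superfamily genes 2 were higher and 0 lower (median 0.51), Tnfrsf1b, the second TNF receptor, among them (log2 1.39 ± 0.18, adjusted p = 0.000158).

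Some receptors that sense complement, chemokines and microbes were called higher with TSLP, and most were not called. Among chemoattractant receptors 6 of 18 tested were higher and 1, Cx3cr1, lower (median 0.63), and the call of Cx3cr1 was lost without any 1 immature library other than IL-3 immature 3. C5ar1, the receptor for complement fragment C5a, stood at 14.1, 15.6 and 28.3 against 2.91, 3.43 and 2.65 CPM (log2 2.66 ± 0.30, adjusted p = 3.85e-05). C3ar1, which senses fragment C3a, stood at 115, 130.5 and 145 against 48, 43.1 and 42.4 CPM (log2 1.55 ± 0.18), Cxcr2, a chemokine receptor, at 227, 229 and 243 against 89.3, 90.6 and 75.5 CPM (log2 1.45 ± 0.16). P2ry14, a receptor for UDP-sugars, rose by 1.63. In mature cells Cxcr2 was lower with TSLP (log2 -0.57, adjusted p = 0.0154), and the interaction was called for 8 of the 18 genes, Cxcr2 (interaction 2.03 ± 0.22) and C3ar1 (1.92 ± 0.24) among them. Of 16 tested Toll-like receptor and adaptor genes 4 were higher and 0 lower (median 0.87), led by Tlr1 at 12, 12.9 and 13.6 against 1.94, 0.286 and 0.331 CPM (log2 4.10 ± 0.41, adjusted p = 1.2e-05) and Tlr2 (log2 2.69 ± 0.58, adjusted p = 0.00695), whose products pair to sense bacterial lipopeptides. Tlr1 shares 15.4% of its 50-base stretches with Tlr6 and other genes.

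Paired receptors, families in which close relatives activate or inhibit the cell, had 10 of 28 tested members called higher and 0 lower (median 0.44) and 10 or 11 called whichever immature library was left out. Pilrb1, an activating receptor, stood at 37, 30.9 and 36.4 against 1.46, 1.43 and 1.66 CPM (log2 4.48 ± 0.30, adjusted p = 1.27e-07), and Pilrb2 rose by 4.08. Pilra, their inhibitory relative, stood at 7.82, 5.08 and 6.47 against 0.97, 0 and 0 CPM (log2 4.56 ± 0.67, adjusted p = 0.000407). Pilrb1 and Pilrb2 share 30.1% and 29.2% of their 50-base stretches with each other and Pilra, so their separate values are uncertain. The inhibitory receptor Lilrb4a stood at 1492, 1437 and 1781 against 569.5, 584 and 547 CPM (log2 1.47 ± 0.17, adjusted p = 5.4e-05). The myeloid receptor Clec5a had 43 counts in TSLP and 1 count in IL-3 immature cells, a ratio of 41.8 (95% exact binomial interval 7.12 to 1690). Cd200r3, an activating receptor on which the cells were sorted, overlapped between the groups (761, 764 and 897 against 748, 766 and 662 CPM, adjusted p = 0.589), and Clec12a, which marks pre-basophils in the study, was at 123, 113 and 145 against 253, 291 and 238 CPM without being called (log2 -1.04 ± 0.38, adjusted p = 0.085). Clec12a was called lower in 6 of 22 alternatives, among them only the 6 immature libraries, the replicate block and leaving out TSLP mature 1 or 3, with log2 values of -1.15 to -0.99 over all of them.

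Adhesion molecules and integrins gave 10 higher and 1 lower of 28 tested (median 0.43). The higher count fell to 5 without TSLP immature 3, IL-3 immature 1 or IL-3 immature 2 and to 6 without TSLP immature 1. Itgam, the CD11b chain, stood at 629.6, 595 and 653 against 178, 173 and 143 CPM (log2 1.93 ± 0.17, adjusted p = 3.48e-06), and 66.3% of its 50-base stretches occur in 1 other annotated entry. Itgb3, an integrin beta chain, stood at 195, 194 and 211 against 56.8, 45.1 and 59.6 CPM (log2 1.90 ± 0.21, adjusted p = 2.8e-05). Both genes were separated by more than their spread. Itga2, which encodes the sorting antigen CD49b, stood at 81.5, 89.1 and 88.5 against 31, 28.3 and 22.5 CPM (log2 1.67 ± 0.27, adjusted p = 0.000981) although both groups were gated as CD49blo. Its levels in mature cells, 168 ± 61.9 CPM with TSLP and 247 ± 59.2 CPM with IL-3, were higher than in the immature cells, each of the 6 mature libraries lying above each of the 6 immature ones. Cd9, high on mature basophils in the study, rose by 0.76 on the log2 scale and lost its call in 6 of 22 alternatives. Whether the TSLP immature cells were further along in maturation than the IL-3 immature cells was not tested.

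Cytoskeletal genes gave 9 higher and 1, Scin, lower of 35 tested (median 0.35). The higher count fell to 3 without TSLP immature 3, IL-3 immature 1 or IL-3 immature 2 and to 4 and 5 without TSLP immature 1 and 2. Capg, an actin-capping protein, stood at 82.7, 77 and 99.4 against 33.5, 30 and 30.8 CPM (log2 1.46 ± 0.21, adjusted p = 0.000344). Capg belongs to the same gelsolin family as Scin, and the 2 genes moved in opposite directions without overlap. Tmsb4x, which binds actin monomers, was not called (log2 -0.29 ± 0.31, adjusted p = 0.593).

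Among lineage transcription factors 6 of 31 tested were higher and 2 lower (median 0.36). The higher count was 3 or 4 whichever immature library was left out. Bhlhe40, a repressor induced by cytokines, stood at 63.4, 69.5 and 68.8 against 9.7, 12.6 and 9.6 CPM (log2 2.64 ± 0.18, adjusted p = 1.27e-07). Nfil3, a factor required by several innate cell types, stood at 460.3, 449 and 500.5 against 203, 196 and 172 CPM (log2 1.30 ± 0.19, adjusted p = 0.000382). Klf2 rose by 2.81. Ikzf3 fell from 112, 112 and 114 to 70.1, 58.2 and 47 CPM (log2 -0.94 ± 0.18, adjusted p = 0.00279), and Erg, a factor of stem and progenitor cells, from 34.4, 21.4 and 23.2 to 9.62, 8.99 and 8.85 CPM (log2 -1.500 ± 0.24, adjusted p = 0.000951), both without overlap. Gata2, which basophils depend on, was not called (843, 887 and 904 against 561, 644 and 849.6 CPM, adjusted p = 0.201).

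The stored effector molecules of basophils were lower or not called. Of 8 tested granule genes 0 were higher and 3 lower (median -0.63). The lower count was 1 without TSLP immature 3 or IL-3 immature 2 and 2 without any other immature library. Cpa3, a carboxypeptidase, stood at 1684, 1629 and 1600.2 CPM with TSLP and 3223, 3228 and 2759 CPM with IL-3 (log2 -0.91 ± 0.19, adjusted p = 0.00581), and was called under every alternative. Mcpt8, the protease that identifies mouse basophils, stood at 9037, 8592 and 8667 against 16424, 15574 and 16382 CPM (log2 -0.88 ± 0.24, adjusted p = 0.0233). All 3 TSLP libraries lay below all 3 IL-3 libraries, but the call was lost without any 1 of the 6 immature libraries, the log2 value staying between -0.95 and -0.84. Prss34, another basophil protease, was at 14513, 14188 and 16520.5 against 17108, 21227 and 20606 CPM and not called (log2 -0.38 ± 0.21, adjusted p = 0.243). The interaction was called for 0 of the 8 granule genes and for 4.19% of all tested genes, and a list of 8 is too short to tell these apart.

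Histamine and eicosanoid genes split, with 3 higher and 2 lower of 13 tested (median 0.17), and 1 was higher without TSLP immature 1, 2 or 3 or IL-3 immature 1 or 2. Ptgs2, the inducible enzyme of prostaglandin synthesis, stood at 38.2, 50.8 and 64.3 against 11.6, 13.7 and 14.6 CPM (log2 1.93 ± 0.35, adjusted p = 0.00214) and was the member called under every alternative. Hdc, which makes histamine, stood at 627, 636 and 674 against 329, 439 and 461 CPM (log2 0.66 ± 0.17, adjusted p = 0.0207), whereas Slc18a2, which loads histamine into granules, stood at 346, 332 and 242 against 962, 561 and 368 CPM (log2 -1.04 ± 0.28, adjusted p = 0.0231). The call of Hdc was lost with no filter on low counts and without TSLP immature 1, 2 or 3 or IL-3 immature 1 or 2 (log2 0.51 to 0.71 over all alternatives), and that of Slc18a2 without TSLP immature 3 or IL-3 immature 1 (-1.34 to -0.61). Of 21 tested genes of IgE receptor signalling 3 were higher and 0 lower (median 0.16), with 1 higher without TSLP immature 1 or 3 or IL-3 immature 1 or 2. Among them was Syk, the kinase next to the receptor, at 98.6, 112 and 123 against 48.5, 56.8 and 74.2 CPM (log2 0.89 ± 0.18, adjusted p = 0.00454). The receptor chains themselves were not called, Fcer1a at 1262, 1222 and 1529.7 against 1599, 1614 and 1584 CPM (adjusted p = 0.517) and Ms4a2 at log2 -0.19 ± 0.17 (adjusted p = 0.499).

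Of 8 tested azurophil granule genes 4 were lower and 1 higher (median -0.94). The lower count was 2 or 3 whichever immature library was left out. Nkg7, given above, and Calr, a calcium-binding chaperone of the endoplasmic reticulum that is also on this list, were the members lower under every alternative. Calr stood at 724, 734 and 730.3 against 1220.1, 1293 and 1270.0 CPM (log2 -0.79 ± 0.18, adjusted p = 0.00847). The protease gene Ctsg stood at 958, 978 and 1003 against 1812, 2181 and 1786 CPM (log2 -0.98 ± 0.23, adjusted p = 0.013) and lost its call without TSLP immature 3 or IL-3 immature 2 (-1.06 to -0.91 over all alternatives). Myeloperoxidase (Mpo) stood at 367, 328 and 306 against 730.1, 651 and 759.8 CPM and was not called (log2 -1.10 ± 0.47, adjusted p = 0.136). Hp, which encodes haptoglobin, went the other way, at 62.5, 71.9 and 68.4 against 28.6, 29.7 and 33.4 CPM (log2 1.14 ± 0.21, adjusted p = 0.00218). Of 17 tested progenitor genes 1 was higher and 3 lower (median -0.43). The lower count was 1 or 2 whichever immature library was left out, Angpt1 being the member lower under every alternative. Kit, the stem cell factor receptor that BMBAs lack in the study's gate, stood at 0.301, 0.391 and 0.34 against 1.46, 0.571 and 0 CPM and was not tested.

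**Figure D3:**
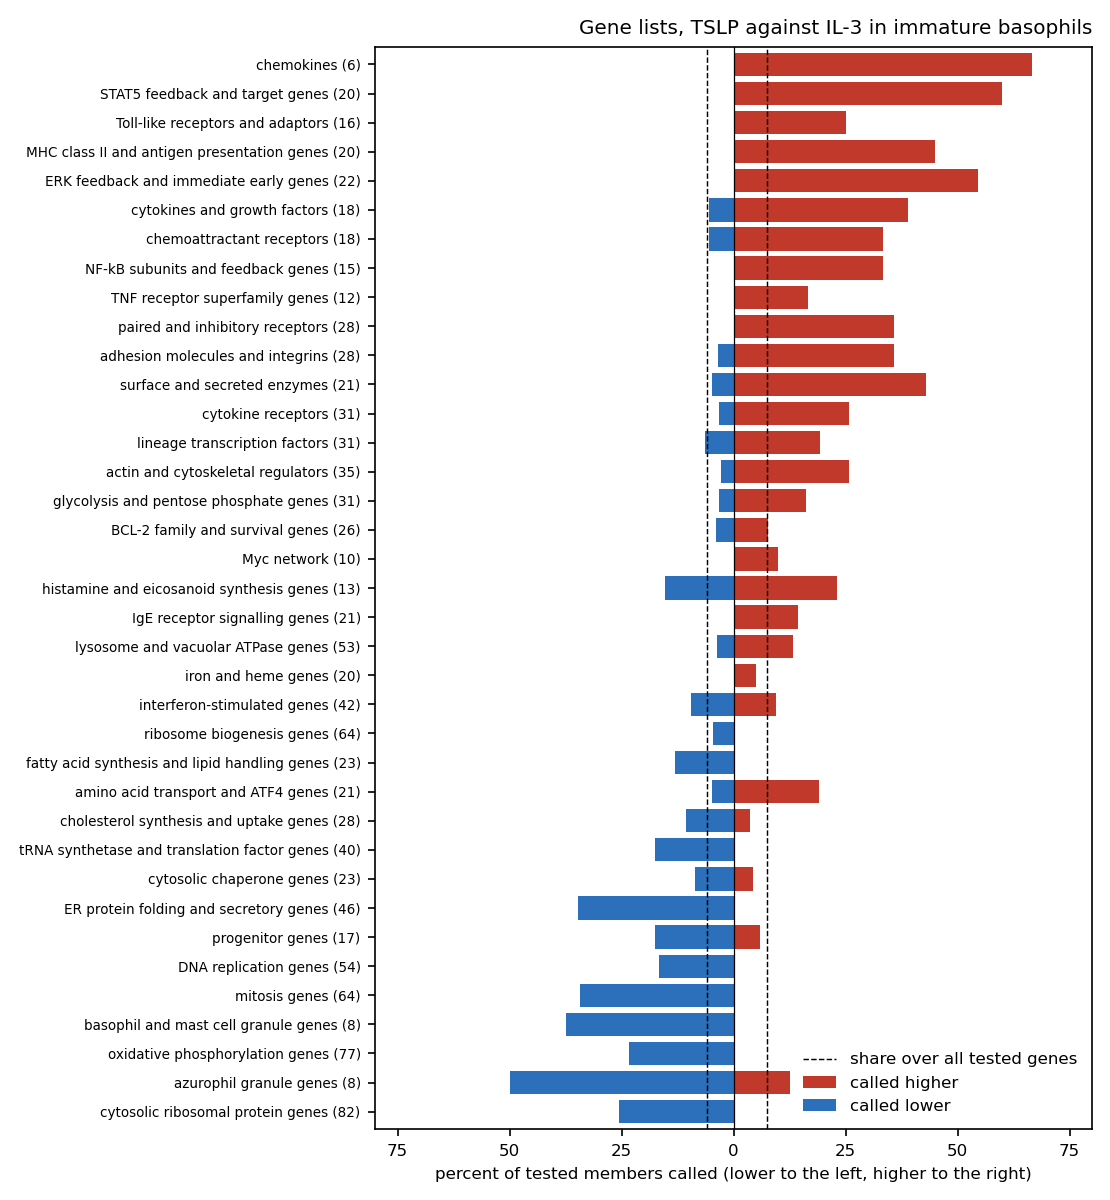
Bars give the percent of the tested members of each of 37 gene lists called higher (red, to the right) or lower (blue, to the left) with TSLP, with the number tested in brackets and the lists ordered by their median log2 fold change. Dashed lines mark the shares over all tested genes, 7.38% higher and 5.9% lower, and chemokine and STAT5 genes reach furthest to the right, at 66.7% and 60% of their members.

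Cell cycle genes that were called were lower with TSLP in immature cells, and nearly all that were called in mature cells were higher. Of 54 tested DNA replication genes 9 were lower and 0 higher in immature cells (median -0.46), and of 64 tested mitosis genes 22 were lower and 0 higher (median -0.59). The per-library medians of the mitosis genes, as log2 differences from the IL-3 immature mean, were -0.45, -0.53 and -0.61 in TSLP immature 1, 2 and 3 and 0.07, 0.04 and -0.08 in IL-3 immature 1, 2 and 3. The 3 TSLP libraries thus lay together, below the 3 IL-3 libraries. With single libraries left out, 7 mitosis and 2 replication genes were lower without TSLP immature 3, 8 and 4 for IL-3 immature 1, 12 and 4 for IL-3 immature 2, 14 and 5 for TSLP immature 1, and 11 and 6 for TSLP immature 2. The counts were higher without TSLP mature 1 (32 and 21) and with only the 6 immature libraries (35 and 23).

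Lig1, the ligase that joins Okazaki fragments, stood at 68.9, 67.6 and 72.2 CPM with TSLP and 205, 148 and 148 CPM with IL-3 (log2 -1.26 ± 0.26, adjusted p = 0.00474). Kif2c, a motor protein that takes microtubules apart at kinetochores, stood at 27.7, 29.7 and 25.5 against 61.1, 59.7 and 69.2 CPM (log2 -1.20 ± 0.23, adjusted p = 0.00309). Cenpe, a kinetochore motor, stood at 64.6, 61 and 59.9 against 155, 131 and 92.4 CPM (log2 -1.02 ± 0.22, adjusted p = 0.00638). E2f1, a factor that drives entry into S phase, was at log2 -1.09 ± 0.21 (adjusted p = 0.00326). These 4 genes did not overlap between the groups and were called under every alternative. Pcna, the sliding clamp of replication, stood at nearly the same levels in both groups (209, 221 and 237 and 201, 224 and 221 CPM, log2 0.05 ± 0.18, adjusted p = 0.901), and the condensin gene Ncapd2 was not called (log2 -0.12 ± 0.22, adjusted p = 0.759). In mature cells 12.4% of all tested genes were called higher and 11.9% lower with TSLP. Of the 54 replication genes 26 were higher and 1 lower there (median 1.13), and 28 of the 64 mitosis genes were higher and 3 lower (median 1.43), where levels were low. Lig1, for one, stood at 9.27 ± 4.45 CPM in TSLP mature and 1.24 ± 1.14 CPM in IL-3 mature cells. The interaction was called for 23 of the replication and 25 of the mitosis genes, against 4.19% of all genes tested.

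Among 26 tested survival genes of the BCL-2 family 2 (7.69%) were higher and 1 (3.85%) lower (median 0.20). Over all tested genes these shares were 7.38% and 5.9%. Bid, a pro-apoptotic member, was at log2 0.93 ± 0.19 (adjusted p = 0.00413). Of 10 tested genes of the Myc network 1 (10%), Myc itself, was higher (median 0.19). Myc stood at 28.9, 28.1 and 32.7 against 7.76, 16 and 18.2 CPM (log2 1.06 ± 0.27, adjusted p = 0.0168), without overlap, and lost its call without TSLP immature 1 or 3 or IL-3 immature 1 or 2 (0.79 to 1.30 over all alternatives). Of 64 tested ribosome biogenesis genes 3 (4.69%) were lower, below the 5.9% of all tested genes, and 0 higher (median -0.08). Ncl, which encodes nucleolin, was 1 of the 3 (log2 -0.74 ± 0.16, adjusted p = 0.00795, not called without TSLP immature 3). The lower count ran from 0 (without TSLP immature 3) to 5 (without IL-3 immature 3). Of 40 tested genes of tRNA synthetases and translation factors 7 were lower and 0 higher (median -0.18), 4 without TSLP immature 3 or IL-3 immature 1, with Eif5b, which joins ribosomal subunits, at 61, 63.7 and 59.2 against 199, 111 and 131 CPM (log2 -1.26 ± 0.22, adjusted p = 0.00169). The elongation factor gene Eef1a1 was not called (log2 0.09 ± 0.18, adjusted p = 0.783).

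Cytosolic ribosomal protein genes gave 21 lower and 0 higher of 82 tested (median -0.95), and oxidative phosphorylation genes 18 lower and 0 higher of 77 tested (median -0.72), but these counts depended on single libraries. The ribosomal protein medians were -0.71, -0.52 and -1.98 in TSLP immature 1, 2 and 3, and those of oxidative phosphorylation -0.53, -0.33 and -1.37, against -0.13 to 0.14 in the 3 IL-3 immature libraries for both lists. TSLP immature 3 was thus far lower than the other 2 TSLP immature libraries, and all 3 lay below the IL-3 immature libraries. Among the mature libraries TSLP mature 3 lay lower still, at -2.91 and -2.33. The lower counts were 3 and 5 without TSLP immature 3, 6 and 10 without TSLP immature 1, and 2 and 6, 3 and 4, or 11 and 10 when the first, second or the third IL-3 immature library was left out. They were higher, at 42 and 37, without TSLP mature 1, at 45 and 33 without TSLP mature 3, and at 39 and 32 with only the 6 immature libraries, and lower for ribosomal proteins without any 1 of IL-3 mature 1, 2 or 3 or TSLP mature 2, at 12 or 13. Rpl23, a protein of the large ribosomal subunit, stood at 361, 412 and 96 against 1799, 1131 and 908 CPM (log2 -2.14 ± 0.48, adjusted p = 0.00794). Ndufa1, a subunit of respiratory complex I, stood at 85.4, 116 and 17.4 against 414, 336 and 258 CPM (log2 -2.20 ± 0.51, adjusted p = 0.00963). Both were called under every alternative. Rplp0, a ribosomal protein with a longer transcript, was at 1831, 1839 and 2283 against 1534, 1498 and 1613 CPM and not called (log2 0.36 ± 0.22, adjusted p = 0.317), nor was Atp5b, a subunit of the ATP synthase (log2 0.21 ± 0.18, adjusted p = 0.464). In mature cells 53 of the 82 ribosomal protein genes were lower with TSLP and 4 higher (median -1.59). Of the 77 oxidative phosphorylation genes 34 were lower and 8 higher there (median -0.71). Over all tested genes 11.9% were lower and 12.4% higher in mature cells. The interaction was called for 1 ribosomal protein and 0 oxidative phosphorylation genes, against 4.19% of all tested genes.

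Short transcripts moved in the same direction as these lists, whose members were not taken out of the length classes. Over the 1148 tested genes with a median transcript under 750 bases the median log2 fold change was -0.15, with 129 genes lower and 74 higher, and over the longer classes it ran from 0.03 to 0.08. With an offset for transcript length, added after seeing the data, 31 ribosomal protein and 25 oxidative phosphorylation genes were lower and 0 higher, while their medians moved towards 0, to -0.81 and -0.48. The offset raised the number of called genes overall too, from 1443 to 1782. The share of ribosomal RNA, given above, also separated the groups, and the part of transcript length or ribosomal RNA in these results was not tested further.

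**Figure D4:**
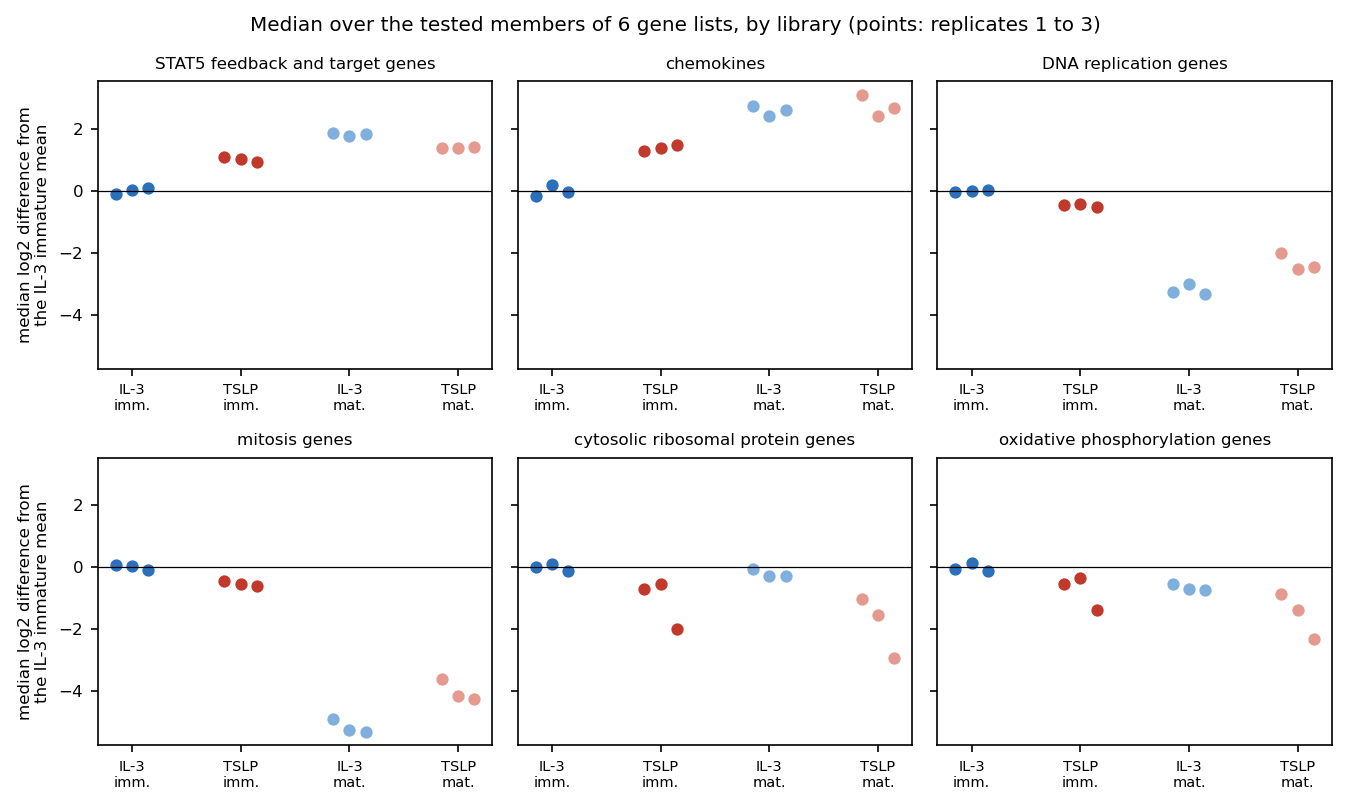
Each point is the median, over the tested members of 1 list, of the log2 difference between 1 library and the IL-3 immature mean. STAT5 and chemokine genes lie above 0 in all 3 TSLP immature libraries, and replication and mitosis genes lie below 0 in all 3. For these lists the IL-3 mature libraries lie further out in the same direction, at 1.79 to 1.88 for STAT5 and -4.91 to -5.31 for mitosis genes. They do not for ribosomal protein genes (-0.07 to -0.29). For ribosomal protein and oxidative phosphorylation genes TSLP immature 3 (-1.98 and -1.37) lies far below TSLP immature 1 and 2. TSLP mature 3 (-2.91 and -2.33) lies lower still.

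Of 46 tested genes of protein folding and secretion in the endoplasmic reticulum 16 were lower and 0 higher (median -0.39). The lower count was 5 without TSLP immature 3, 6 and 7 without IL-3 immature 1 and 2, and 8 without TSLP immature 1 or 2. The per-library medians were -0.44, -0.42 and -0.30 in TSLP immature 1, 2 and 3, so TSLP immature 3 was not the lowest here. Sdf2l1, a chaperone partner of the endoplasmic reticulum, stood at 152, 142 and 85.1 against 588, 434 and 412 CPM (log2 -1.92 ± 0.25, adjusted p = 0.000129). Sec61a1, the core of the channel through which proteins enter the endoplasmic reticulum, was not called (log2 -0.36 ± 0.16, adjusted p = 0.136), nor was P4hb, a disulfide isomerase (log2 0.23 ± 0.17, adjusted p = 0.395). Among 23 tested cytosolic chaperone genes 1 (4.35%) was higher and 2 (8.7%) lower (median -0.24), against 7.38% and 5.9% of all tested genes. The lower Hsp90aa1 (log2 -0.78 ± 0.18, adjusted p = 0.0113) was not called without TSLP immature 3 or IL-3 immature 1.

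Some genes of sugar and amino acid uptake were called higher. Of 31 tested glycolysis and pentose phosphate genes 5 were higher and 1 lower (median 0.31), with 4 or 5 higher whichever immature library was left out. The glucose transporter gene Slc2a1 stood at 45.7, 38.7 and 54.8 against 13.1, 23.7 and 22.2 CPM (log2 1.21 ± 0.21, adjusted p = 0.00177). Slc16a3, which exports lactate, stood at 78.8, 73.5 and 94 against 32.5, 34.3 and 44.4 CPM (log2 1.14 ± 0.17, adjusted p = 0.00056). Pfkl, a rate-controlling enzyme of glycolysis, was at log2 0.85 ± 0.16 (adjusted p = 0.00343), while Gapdh was not called (log2 0.38 ± 0.20, adjusted p = 0.226). Slc7a5, a carrier of large neutral amino acids, stood at 183, 176 and 211 against 37.4, 49.99 and 65.6 CPM (log2 1.89 ± 0.24, adjusted p = 9.54e-05). Sesn2, a leucine sensor, stood at 34.3, 44.2 and 43.9 against 13.6, 9.71 and 11.9 CPM (log2 1.81 ± 0.24, adjusted p = 0.000157). These 2, Slc3a2, the partner chain of Slc7a5, and Slc6a9, a glycine transporter, made up the 4 higher genes of 21 tested on the amino acid and ATF4 list, on which 1 gene was lower and the median was -0.17, against the direction of most calls. Atf4 itself was not called (log2 0.35 ± 0.22, adjusted p = 0.307).

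Lipid genes that were called were mostly lower, and their counts were small. Of 28 tested cholesterol genes 1 was higher and 3 lower (median -0.18), and of 23 tested fatty acid and lipid genes 0 were higher and 3 lower (median -0.09), with 0 lower on either list without TSLP immature 3. Hmgcs1, an early enzyme of cholesterol synthesis, was at log2 -0.75 ± 0.19 (adjusted p = 0.0172, not called without TSLP immature 3 or IL-3 immature 1). Among 53 tested lysosome genes 7 were higher and 2 lower (median 0.13). The higher count was 1 without TSLP immature 3 or IL-3 immature 1, 2 without TSLP immature 2 or IL-3 immature 2 and 3 without TSLP immature 1. Among 20 tested iron and heme genes 1 (5%, against 7.38% of all tested genes) was higher and 0 lower (median 0.06). This was the ferritin light chain Ftl1 (log2 0.87 ± 0.22, adjusted p = 0.0179). It shares 50.9% of its 50-base stretches with its pseudogenes. Its call was lost without TSLP immature 2 or 3 or without any 1 IL-3 immature library.

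Among antigen presentation genes 9 of 20 tested were called higher and 0 lower (median 0.77), 5 without TSLP immature 3, 4 with IL-3 immature 2 left out and 6 without TSLP immature 2 or IL-3 immature 3. Cd86, a costimulatory ligand, stood at 13.5, 14.8 and 13.3 against 0.485, 3.43 and 1.99 CPM (log2 2.65 ± 0.35, adjusted p = 0.000174). Cd74, the invariant chain of MHC class II, stood at 60.7, 57.8 and 68.8 against 24.3, 18.9 and 13.9 CPM (log2 1.73 ± 0.40, adjusted p = 0.0102, not called without IL-3 immature 2 or 3). H2-Ab1, a class II chain, was at 33.1, 29.3 and 27.6 against 23.3, 20.6 and 16.2 CPM and not called (log2 0.59 ± 0.41, adjusted p = 0.364). Summed markers of B lineage and dendritic cells, which carry these molecules, were higher too. The 15 B lineage markers in the table, 4 of them at 0 in TSLP and 6 in IL-3 immature cells, summed to 50.4 to 52.4 CPM in TSLP and 7.95 to 9.70 CPM in IL-3 libraries, with Ms4a1, which encodes CD20, at 11.1, 8.6 and 9.87 against 0.97, 0 and 0.331 CPM (log2 4.65 ± 1.09, adjusted p = 0.0112, not called without IL-3 immature 2 or 3), while Pax5 had 0 counts in IL-3 immature cells. The 12 dendritic cell markers, which include Cd74 and the class II genes, summed to 123 to 132 CPM in TSLP and 36.1 to 81.5 CPM in IL-3 libraries, and the part of such cells in the antigen presentation genes was not tested. Monocyte and macrophage markers summed to 335 to 401 against 220 to 368 CPM, with Adgre1 and Ly6c2 called higher under every alternative and Mrc1 called higher but lost in 12 of its 19 alternatives (adjusted p up to 0.197). Of the 11 tested monocyte and macrophage markers 6 had positive and 5 negative log2 fold changes (median 0.09). Neutrophil markers summed to 356 to 394 against 244 to 289 CPM. However, 8 of the 12 neutrophil markers had negative log2 fold changes (median -0.30), and 1, Cxcr2, was called higher. Eosinophil markers summed to 309 to 378 against 221 to 272 CPM. The sums of T, NK and innate lymphoid markers were 32.3 to 45.7 against 15.6 to 23.4 CPM, of megakaryocyte markers 712 to 841 against 607 to 745 CPM, and of erythroid markers 1.17 to 3.91 against 2.98 to 10.7 CPM. The part of these cells in any list was not tested.

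Interferon-stimulated genes split evenly, with 4 higher and 4 lower of 42 tested (9.52% each, against 7.38% and 5.9% of all tested genes, median -0.02). Zbp1, a sensor of left-handed nucleic acids, rose (log2 1.47 ± 0.28, adjusted p = 0.00326), and Ifi27l2a fell from 14.1, 9.14 and 9.27 to 2.4, 2.73 and 0.34 CPM (log2 -2.52 ± 0.51, adjusted p = 0.00441). Of 21 tested surface and secreted enzymes 9 were higher and 1, Dpp4, lower (median 0.42), with 8 or 9 higher whichever immature library was left out. F13a1, the coagulation factor XIII subunit, stood at 175, 166 and 198 against 23.3, 21.1 and 31.5 CPM (log2 2.83 ± 0.19, adjusted p = 1.27e-07). Nt5e, the ectoenzyme CD73 that makes adenosine, stood at 38.2, 40.6 and 49.7 against 8.73, 10.6 and 7.62 CPM (log2 2.24 ± 0.23, adjusted p = 1.53e-05). Anpep, an aminopeptidase, stood at 14.1, 16.4 and 22.1 against 4.37, 3.14 and 1.66 CPM (log2 2.56 ± 0.31, adjusted p = 6.32e-05). In mature cells Anpep was lower with TSLP, at 59.1 ± 7.49 against 126 ± 16.7 CPM (log2 -1.09, interaction 3.65 ± 0.37, adjusted p = 4.82e-05). The metalloprotease gene Adam19 had 104 counts in TSLP and 1 count in IL-3 immature cells, a ratio of 101.2 (95% exact binomial interval 17.8 to 4034, counting error only).

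Across all genes the cytokine difference of immature cells was called different from that of mature cells more often among the genes that rose than among all tested genes. Over all tested genes 12.4% were called higher and 11.9% lower with TSLP in mature cells. Of the 802 genes higher with TSLP in immature cells, 169 (21.1%) had a called interaction, in 168 of them with the larger rise in immature cells, and 264 were also higher, 33 lower and 505 not called in mature cells. Of the 641 lower genes, 57 (8.89%) had a called interaction, 55 with the larger fall in immature cells, and 377 were also lower, 30 higher and 234 not called in mature cells. The interaction uses the immature libraries that chose these genes, so these shares describe the genes and test nothing. The median log2 fold change of the higher genes was 1.07 in immature and 0.45 in mature cells, and that of the lower genes -1.18 and -1.01. Lif (log2 2.52 in mature cells) and Asb2 (0.80) kept their direction with smaller differences, since the IL-3 mature libraries stood at 25.6, 32.1 and 37.4 CPM for Lif and at 99.4, 114 and 124 CPM for Asb2. Scin kept its direction too, at 4.38 ± 2.07 against 14.2 ± 1.9 CPM in mature cells (log2 -1.71, interaction -1.42 ± 0.38, adjusted p = 0.0477).

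**Figure D5:**
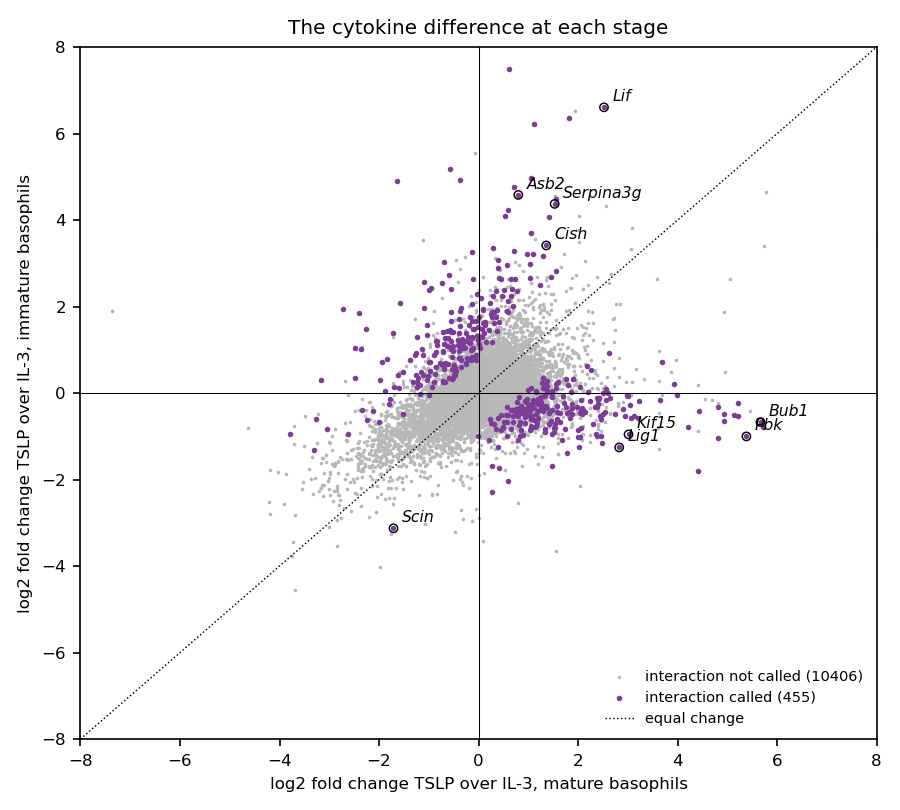
Each point is 1 tested gene, placed by its log2 fold change of TSLP over IL-3 in mature (x axis) and in immature cells (y axis), which share no library. The 455 genes with a called interaction are purple, with Lif, Asb2, Cish and Serpina3g above the dotted line of equal change and Lig1, Kif15, Pbk and Bub1 lower with TSLP in immature and higher in mature cells.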

How the data were processed

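Polyadenylated RNA of 12 sorted samples in 4 groups of 3 was sequenced on an Ion Proton instrument after whole-transcriptome PCR. Per the labels and the methods of the study, Cutadapt trimmed the reads and Bowtie2 placed them on the GRCm38 reference RNA (the submitters' processing notes list GRCm39 and mm10). The authors deposited raw counts per gene symbol in 1 table. Its unnamed row, 50% of each column, equalled the sum of the others and was left out. How strand, molecular identifiers and reads with several hits were treated is not given in the sources used here. Rn45s held 100.1% to 101.8% of the summed counts of Rn18s and Rn28s1 in all 12 libraries, so these entries share reads, and shares of ribosomal RNA are sums over the 6 entries. Reads of near-identical genes, and of genes overlapping on opposite strands (64 of the 277 genes the rule names, Cish, Dpp4 and Il3ra among them), may be split or merged.

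The test was edgeR's quasi-likelihood test on the deposited counts (version 4.0.16 under R 4.3.3, filterByExpr, minimum count 10, minimum total 15, TMM, no replicate block), in 1 fit of all 12 libraries with 1 mean per group. The filter kept 10861 of 31301 genes, 22634 of which had a count. Adjusted p-values are Benjamini-Hochberg values over all tested genes, and an adjusted p under 0.05 is termed called. The contrasts were TSLP minus IL-3 in immature cells, the same in mature cells, and their difference. The common biological coefficient of variation was 20.4%. A group with 0 counts was given a floor of 3 counts, 0.34 CPM in TSLP and 0.35 CPM in IL-3 immature cells. Both intervals and floors account for counting error alone. Coordinates and transcript lengths are from GENCODE for GRCm38, with 270 of the 277 genes matched by symbol, and 41 shared over 10% of their 50-base stretches with other genes. Scripts were tested on simulated counts.

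Genes were named by a rule with 5 parts: per direction, the 12 largest changes of called genes without overlap whose mean reached 10 CPM, the 8 of these with the highest mean CPM and at least a 2-fold change, up to 4 called members per direction and 2 not called from each of 37 gene lists, 20 genes of the receptors, sort and feedback, and the 6 largest interactions. The members and lists were chosen with earlier results of these data known. Alternatives were DESeq2 1.42.0 and its size factors, TMM on genes not called, Rn45s left out, no filter or 10 CPM in 3 libraries, thinned counts, only the 6 immature libraries, a replicate block, each library left out and, added after seeing the data, a transcript length offset. Some named genes are not reported here.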

Additional observations from a re-analysis of the deposited data

Results flagged for a closer look

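The cytokine difference differed between immature and mature cells in 455 genes by the test of the interaction, which takes the log2 difference of TSLP from IL-3 in immature cells minus that in mature cells. The 6 largest among genes called in both tests and with a mean of at least 10 CPM are given here. Lif differed by 4.09, standing at 119 ± 9.6 and 1.28 ± 0.686 CPM in TSLP and IL-3 immature cells and at 182 ± 37.9 and 31.7 ± 5.9 CPM in mature cells (adjusted p = 4.82e-05). Asb2 differed by 3.78 (adjusted p = 2.55e-06), with 196 ± 2.7 and 113 ± 12.6 CPM in mature cells. The other 4 are genes of DNA replication and mitosis that were lower with TSLP in immature and higher in mature cells. The interaction was -4.08 for Lig1 (adjusted p = 0.00042), -6.39 for Pbk (adjusted p = 0.00659), -6.34 for Bub1 (adjusted p = 0.00251) and -3.97 for Kif15 (adjusted p = 0.00877). Pbk and Bub1 had 0 counts in IL-3 mature cells, so their fitted interactions depend on the prior count, and their TSLP mature levels were 1.69 ± 0.694 and 2.08 ± 0.8 CPM. The immature call of Kif15 was lost without TSLP immature 3 or IL-3 immature 1, that of Pbk without these or TSLP immature 2, and that of Bub1 without any 1 immature library other than IL-3 immature 3. The immature log2 fold changes of Bub1, Pbk and Kif15 stayed between -0.84 and -0.61, -1.21 and -0.80, and -1.16 and -0.73 over all alternatives.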

How the results depend on the processing

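Leaving out 1 library moved the number of called genes from 1443 to between 588 and 2243, that of higher genes from 802 to between 363 and 1060, and that of lower genes from 641 to between 225 and 1183. The interaction count moved from 455 to between 240 and 723, and the count in mature cells from 2634 to between 1658 and 2968. The difference in the share of Rn45s, 7.98 percentage points, stayed between 6.46 and 9.004. The highest of these counts in immature cells came without TSLP mature 1 and the lowest without TSLP immature 3, and the cause was not tested. With only the 6 immature libraries 1889 genes were called and 1023 were lower, and with at least a 2-fold change 821 were called. All other alternatives stayed within 1.5 times of these counts, at 1230 to 1893 called genes. No filter on low counts gave 1717 (769 higher, 948 lower), DESeq2 1476 and the transcript length offset 1782. Without TSLP mature 1 more genes were lower on the lists of granule (5), progenitor (6), azurophil granule (7), survival (4), ribosome biogenesis (10), lipid handling (7), cytosolic chaperone (7) and lysosome genes (8), and more were higher among IgE signalling (5) and survival genes (4). Without IL-3 mature 2 or 3 fewer were higher among cytoskeletal (5) and lysosome genes (4). In none of the 22 alternatives did a gene called in both fits change direction.

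Same-numbered libraries of the 2 immature groups deviated together only weakly (r across genes 0.09, 0.05 and 0.16), so the numbers were not taken to pair them, although each library correlated best with its own number. With the replicate block 1893 genes were called, 974 higher and 919 lower, 556 for the interaction and 2853 in mature cells, and 51 ribosomal protein and 37 oxidative phosphorylation genes were lower. Of the 188 named genes that were called, 107 were called under every alternative and 81 were lost in at least 1, while 29 of 88 named genes not called were called in at least 1. With 1720065 to 3447881 counts in the immature libraries, low genes rest on few counts, as Clec5a and Adam19 show with 1 count each in IL-3 cells.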
